A study of Canis lupus familiaris with 9 samples.

Results

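The genes of major histocompatibility complex (MHC) class II antigen presentation were followed across 3 states of canine monocyte-derived macrophages: the transactivator CIITA and its partner RFX5, the invariant chain CD74, the classical chains DLA-DRA, DLA-DQA1 and HLA-DQB2, and the peptide-exchange chains DLA-DMA and DLA-DOA. They were picked by gene symbol, with earlier results of these data known, from the protein coding genes with a group mean for each state. Of 10 genes named, 8 were measured among 12696 genes. DLA-DMB and DLA-DOB, the beta chains that pair with DLA-DMA and DLA-DOA, were not analysed here. The macrophages were grown from adherent blood monocytes of healthy, spayed female beagles of about 2 years of age, for 7 days with 10 ng/mL of recombinant human M-CSF, the growth factor that drives monocytes toward macrophages. M2 macrophages then received 20 ng/mL each of the canine cytokines IL-4 and IL-13, M1 macrophages received 20 ng/mL of canine IFN-γ, and M0 (resting) macrophages received no added cytokine, in each case for 24 h before RNA extraction. There were 3 samples in each of the 3 groups, 9 in all, and since 3 descriptions recur from group to group they were taken to be 3 dogs.

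MHC class II molecules are pairs of an alpha and a beta chain that show peptides from engulfed proteins to CD4+ T cells. The invariant chain CD74 fills the groove of new class II pairs and guides them to the endosome, where DM exchanges its last fragment for peptide and DO restrains DM. CIITA does not bind DNA. It is recruited to class II promoters by a complex of RFX5, RFXANK and RFXAP with CREB and NF-Y, and IFN-γ is the best known inducer of CIITA, with IRF1 among the factors it acts through.

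The values are the authors' mean normalized counts of each group, which carry no standard deviation and no n. A difference between 2 means is therefore given as a log2 ratio with no error and no test, and whether it exceeds the spread between dogs cannot be said from these values. The means summed to 27312028 normalized counts in M2, 28039918 in M1 and 26728643 in M0, and the depth of each sample is unknown. In bulk RNA, more cells of a kind and more RNA per cell cannot be told apart. A ratio of at least 2-fold in either direction (a log2 ratio of 1) was marked, and its share among the 10610 genes whose 3 means averaged at least 50 normalized counts is given as background. All 8 members passed that minimum, DLA-DOA only through the M2 and M1 groups, since its M0 mean of 37.4 lay below it.

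Every member had a higher mean in M2 than in M0 macrophages. At least 2-fold higher in M2 were 3 of the 8, CIITA, DLA-DOA and HLA-DQB2, beside 2.80% of the 10610 genes, and 0 members were at least 2-fold lower, beside 3.25% of all genes. Of all genes 53.4% were higher in M2 by any amount. The median log2 ratio of the members was 0.81, against 0.023 for all genes. The members ranged from 0.35 for CD74 to 1.91 for DLA-DOA. With a minimum average of 200, which leaves out DLA-DOA, 2 members were at least 2-fold higher, beside 2.53% of genes. The median of the members was then 0.74.

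All 8 members also had a higher mean in M1 than in M0 macrophages, except that CD74, with a log2 ratio of 0.064, was at -0.0048 once the groups were scaled to equal totals. At least 2-fold higher in M1 were 3, CIITA, DLA-DMA and DLA-DOA, beside 5.28% of all genes. At least 2-fold lower were 0 members, beside 8.18% of all genes, and 51.4% of all genes were higher in M1 by any amount. The members had a median log2 ratio of 0.57, against 0.015 for all genes. With a minimum average of 200, which leaves out DLA-DOA, 2 members were at least 2-fold higher in M1, beside 5.18% of genes. The median of the members was then 0.56. The comparisons of M2 and of M1 with M0 use the same M0 samples, so they are not independent of each other.

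In M2 against M1 macrophages, 6 members had the higher mean in M2 and 2, DLA-DMA and DLA-DOA, the lower, of which DLA-DOA differed by only -0.0035 on the log2 scale and changed sign when the groups were scaled to equal totals. No member reached 2-fold: 0 were at least 2-fold higher in M2, beside 6.68% of all genes, and 0 at least 2-fold lower, beside 5.40%. Of all genes 49.7% were higher in M2 than in M1. The median log2 ratio of the members was 0.30, against -0.0023 for all genes.

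**Figure D1:**
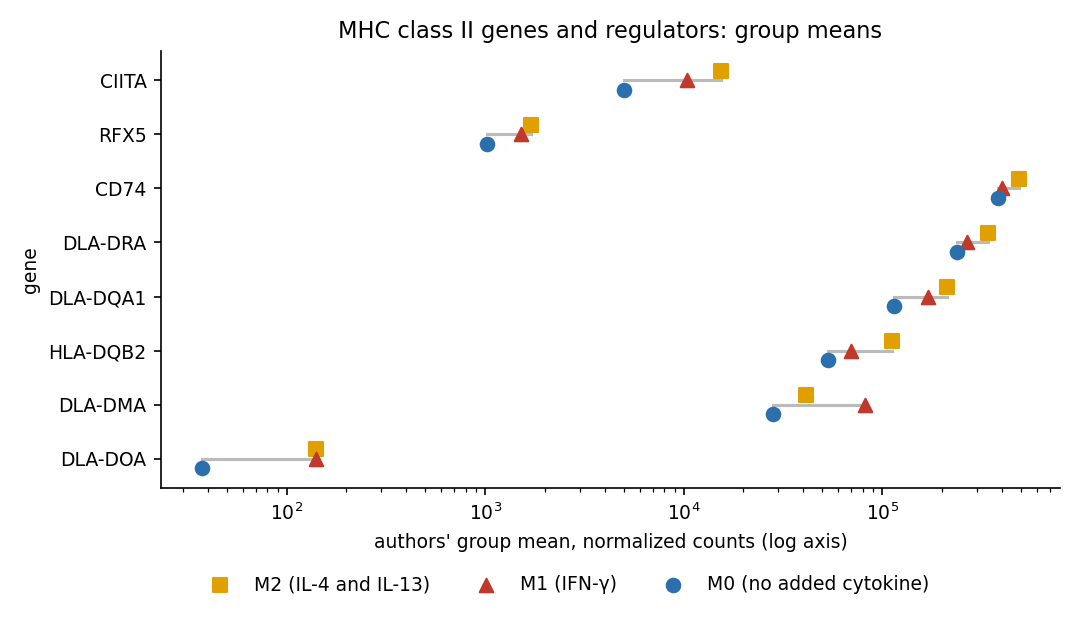
The authors' mean normalized counts of the 8 genes, on a log axis, with squares for M2, triangles for M1 and circles for M0, and a gray line from the lowest to the highest mean of a gene. The M2 mean is the highest of the 3 for CIITA, RFX5, CD74, DLA-DRA, DLA-DQA1 and HLA-DQB2, while the M1 mean is the highest for DLA-DMA (81969) and lies almost on the M2 mean for DLA-DOA (141 in M1, next to 140.4 in M2). Counts are not corrected for gene length, so genes cannot be ranked against each other.

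CIITA, the transactivator on which class II transcription depends, had a mean of 15448 normalized counts in M2, 10373 in M1 and 4989 in M0 macrophages. The log2 ratio of the M2 to the M0 mean was 1.63, above that of 98.7% of the 10610 genes. The M1 mean was 2.08-fold the M0 mean, a log2 ratio of 1.06 above that of 95.2% of the genes. This ratio was close to the 2-fold mark and was 0.99 with the groups scaled to equal totals. CIITA was thus higher in the macrophages treated with IL-4 and IL-13 than in those treated with IFN-γ, by 0.57 on the log2 scale, a difference below 2-fold with no error to set beside it.

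RFX5, the DNA-binding subunit that anchors CIITA at class II promoters, had means of 1700.4 in M2, 1524 in M1 and 1021 in M0. It followed the order of CIITA with smaller ratios, 0.74 for M2 over M0 and 0.58 for M1 over M0. Its 2 partners in the RFX complex stayed nearer to their resting means. RFXANK had means of 833 in M2, 844 in M1 and 782 in M0, and RFXAP had 193 in M2, 216 in M1 and 224 in M0. In M2 over M0 their log2 ratios were 0.09 for RFXANK and -0.21 for RFXAP.

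CD74, the invariant chain, was abundant in all 3 states, with means of 489033 in M2, 401753 in M1 and 384244 in M0. It was 1.27-fold higher in M2 than in M0 (0.35 on the log2 scale) and nearly level in M1 and M0 (0.064). CD74 alone took 1.79% of all normalized counts in M2, 1.43% in M1 and 1.44% in M0. Among the members it had the lowest log2 ratio in both comparisons with M0.

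DLA-DRA, the nearly invariant alpha chain of the DR pair, had means of 341459 in M2, 266856 in M1 and 237556 in M0. Its log2 ratio was 0.52 for M2 over M0 and 0.17 for M1 over M0. It resembled CD74 in the size of its differences: the ratio of CD74 to DLA-DRA changed by -0.18 in M2 over M0 and by -0.10 in M1 over M0 on the log2 scale. A change in the ratio of 2 genes does not depend on their lengths or on how a group was scaled.

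DLA-DQA1, the alpha chain of the DQ pair, had means of 212164 in M2, 169635 in M1 and 115364 in M0. Its log2 ratios were 0.88 for M2 over M0 and 0.56 for M1 over M0, higher than those of DLA-DRA in both. The ratio of DLA-DRA to DLA-DQA1 was accordingly lower in both treated states than in M0, by -0.36 in M2 and -0.39 in M1 on the log2 scale.

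HLA-DQB2, a gene labeled after the human DQ beta chain, had means of 112540 in M2, 69544 in M1 and 53177 in M0. It had the largest M2 over M0 ratio of the 3 classical chains measured as members, 2.12-fold or 1.08 on the log2 scale, and a ratio of 0.39 for M1 over M0. A second entry of this kind, HLA-DQB1, held far fewer counts, with 3263 in M2, 1894 in M1 and 1522 in M0, and log2 ratios of 1.10 for M2 over M0 and 0.31 for M1 over M0. Both names are those of closely similar human genes, DQ beta is highly variable between dogs, and how the reads were shared between the 2 entries is not given, so both values are uncertain. Summed, they gave 115803 in M2, 71438 in M1 and 54699 in M0, with log2 ratios of 1.08 for M2 over M0 and 0.39 for M1 over M0. Of 7 other class II chain symbols listed, HLA-DQB1 was the only one measured, and the DR beta chain was not analysed here.

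CD74 and these 4 classical chain genes together made up 4.24% of all normalized counts in M2, 3.24% in M1 and 2.96% in M0 macrophages.

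**Figure D2:**
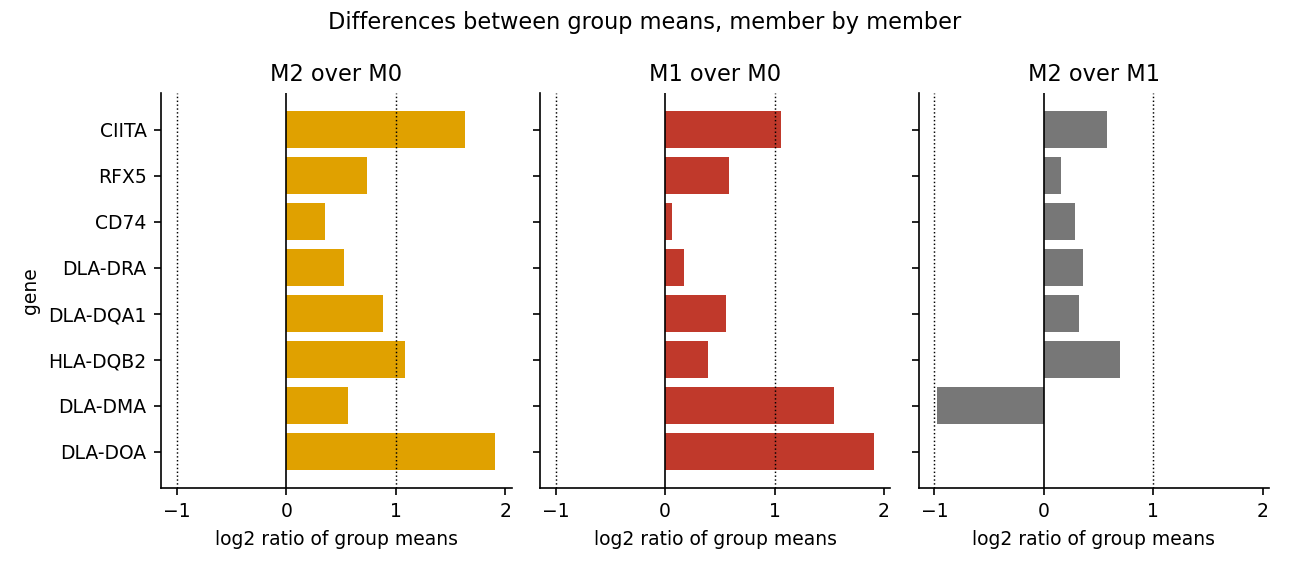
Log2 ratios of the group means of the 8 genes, in panels for M2 over M0, M1 over M0 and M2 over M1, with dotted lines at a 2-fold difference and no error bars because the means carry none. CIITA (1.63 in M2 over M0 and 1.06 in M1 over M0) and DLA-DOA (1.91 in both) exceed 2-fold in both comparisons with M0, DLA-DMA (1.54) only in M1 over M0, and DLA-DMA is the only clear bar to the left in M2 over M1, at -0.98.

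DLA-DMA, the alpha chain of the peptide exchanger DM, departed from this order. Its mean was 41589 in M2, 81969 in M1 and 28158 in M0. It was 2.91-fold higher in M1 than in M0 (1.54 on the log2 scale, above 97.4% of all genes) and 1.48-fold higher in M2 than in M0 (0.56). In M2 over M1 its log2 ratio was -0.98, with 5.49% of genes lying lower. Relative to DLA-DRA, DLA-DMA was 2.59-fold higher in M1 than in M0, and its ratio to DLA-DRA in M2 was 1.03-fold that in M0.

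DLA-DOA, the alpha chain of the DM inhibitor DO, which is best known from B cells, had means of 140.4 in M2, 141 in M1 and 37.4 in M0. It was 3.75-fold higher in M2 and 3.76-fold higher in M1 than in M0, the largest ratio of the members in each comparison. It passed the minimum average of 50 only through the groups where it was high, so its place among the members past 2-fold is a description and adds no support to those counts. It was also the member with the fewest counts, so counting error weighs more on this gene than on any other member. With an average mean of 106 it would not pass a minimum of 200. The ratio of DLA-DMA to DLA-DOA was lower in M2 than in M0 by -1.35 on the log2 scale and lower in M1 than in M0 by -0.37, and it was lower in M2 than in M1 by -0.98.

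**Figure D3:**
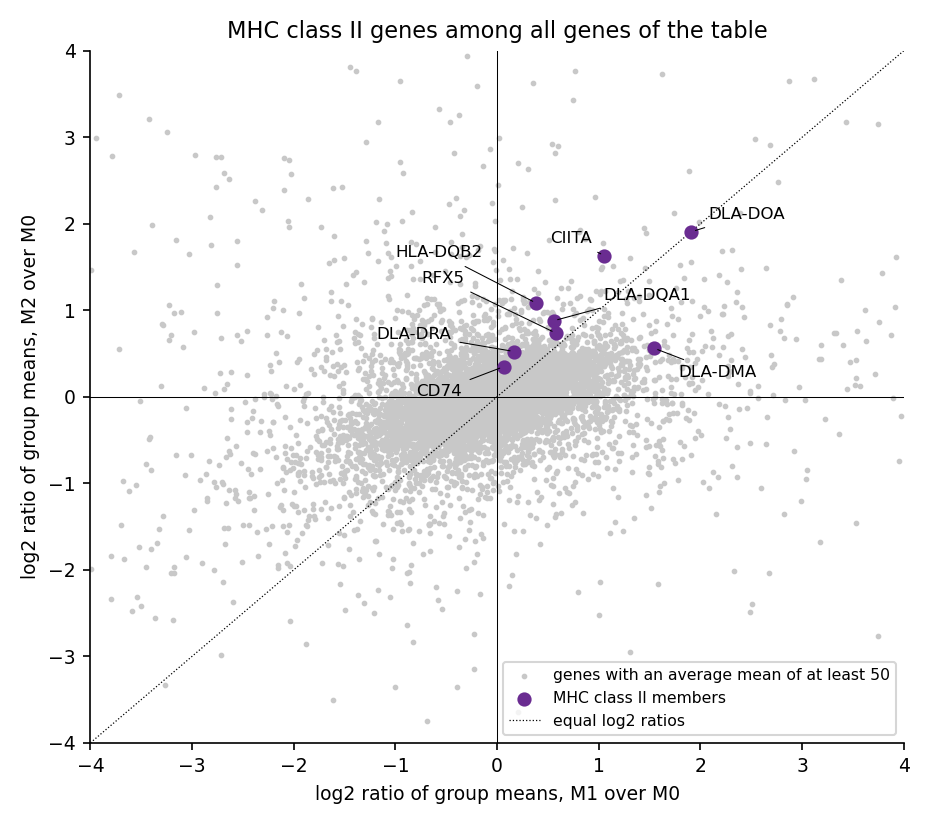
Each point is a gene with an average mean of at least 50, placed by its log2 ratio of group means in M1 over M0 (x axis) and in M2 over M0 (y axis), with the 8 class II genes in purple and a dotted line where both ratios are equal. The axes stop at 4 in each direction, which leaves 85 genes outside, and both axes share the M0 mean. DLA-DMA lies to the right of the dotted line, DLA-DOA on it, and the other 6 above it.

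By their position along the chromosome, the members fall into different surroundings. In the RefSeq annotation of the German Shepherd assembly UU_Cfam_GSD_1.0, which is not the genome the reads were aligned to and is used only for gene order, CIITA is on chromosome 6, CD74 on 4, RFX5 on 17 and the DLA chain genes on 12. HLA-DQB2 has no entry of that name there. The stretch from DLA-DRA to DLA-DOA holds 14 protein coding genes, of which 7 were measured under the same symbol. Their order is DLA-DRA, DLA-DQA1, TAP1, PSMB9, DLA-DMA, BRD2 and DLA-DOA. The stretch also holds DLA-DQB1, a symbol without measured values here. Whether HLA-DQB2 or HLA-DQB1 stands for that gene was not determined. TAP1 is a subunit of the peptide transporter of class I presentation and PSMB9 is a subunit of the immunoproteasome.

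TAP1 had means of 26206 in M2, 73266 in M1 and 18086 in M0, with log2 ratios of 0.53 for M2 over M0 and 2.02 for M1 over M0. PSMB9 had means of 7717 in M2, 14205 in M1 and 5115 in M0, with log2 ratios of 0.59 and 1.47 in the same order. The ratios of DLA-DMA, 0.56 and 1.54, were close to those of PSMB9. The next gene, BRD2, a chromatin reader that is not part of antigen presentation, had means of 12141 in M2, 12737 in M1 and 12215 in M0, and log2 ratios of -0.0087 for M2 over M0 and 0.060 for M1 over M0. DLA-DOA beyond it was higher in both treated states by 1.91.

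**Figure D4:**
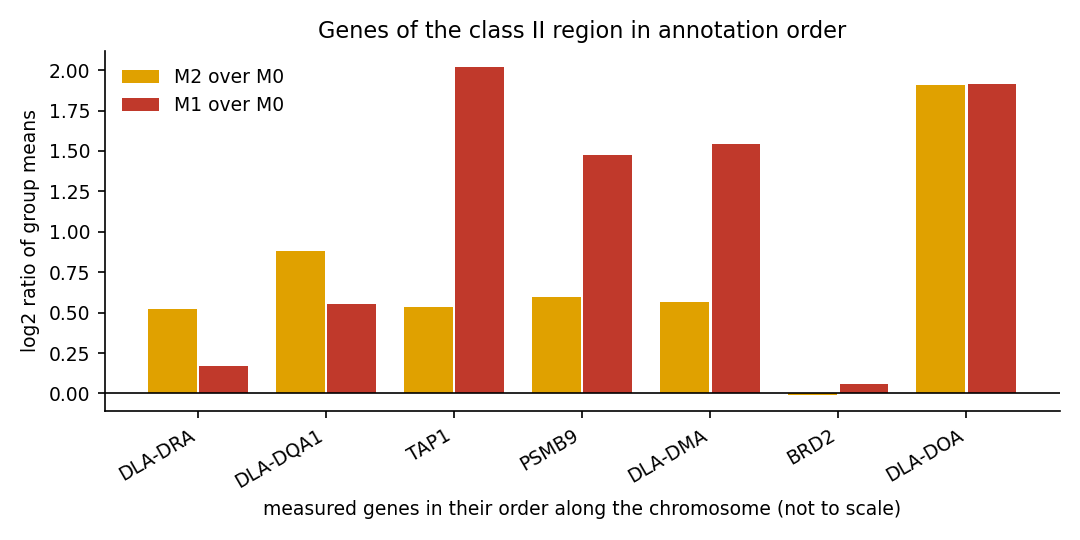
Log2 ratios of group means for the 7 genes from DLA-DRA to DLA-DOA that were measured under their annotation symbol, in annotation order and not to scale. In each pair of bars M2 over M0 is on the left and M1 over M0 on the right. The M2 bar is the taller for DLA-DRA and DLA-DQA1, the M1 bar for TAP1, PSMB9 and DLA-DMA, BRD2 is near 0 in both, and the 2 bars of DLA-DOA are alike.

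Genes that share the work of CIITA at class II promoters were also listed. Of 12 promoter factors, among them RFXANK, RFXAP, the 3 NF-Y subunits, CREB1 and EP300, 0 were at least 2-fold higher or lower in any of the 3 comparisons. Among all genes 2.80% were higher and 3.25% lower in M2 over M0, and 5.28% and 8.18% in M1 over M0. In M2 over M1 these shares were 6.68% and 5.40%. With shares this small, 0 of 12 does not set the promoter factors apart from all genes. The median log2 ratio of the promoter factors was 0.034 in M2 over M0 and 0.050 in M1 over M0. They ranged from -0.26 to 0.22 in M2 over M0 and from -0.45 to 0.48 in M1 over M0.

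The relay from the IFN-γ receptor to CIITA was followed next, with the M0 means shared by both counts. Of 9 measured genes, 2 were at least 2-fold higher in M2 than in M0 and 0 lower, and 4 were higher and 1 was lower in M1 than in M0. Among all genes too, more passed 2-fold in M1 over M0 (5.28% higher and 8.18% lower) than in M2 over M0 (2.80% and 3.25%), and whether the relay differed from them was not tested. IRF1, a transcription factor of the IFN-γ driven CIITA promoter, had means of 6449 in M2, 44368 in M1 and 3804 in M0. Its log2 ratios were 0.76 for M2 over M0 and 3.54 for M1 over M0, and its part in the CIITA differences was not tested. JAK2, a kinase of the IFN-γ receptor, had log2 ratios of 1.04 for M2 over M0 and 2.04 for M1 over M0, and SOCS1, a feedback inhibitor of these kinases, had 3.41 and 4.78. IFNGR1, the ligand-binding receptor chain, had log2 ratios of -0.88 and -1.53.

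Among 9 genes of the IL-4 relay and its partner factors, 1 was at least 2-fold higher and 0 lower in M2 over M0. The shares of all genes were 2.80% and 3.25%. In M1 over M0, 0 were higher and 2 lower, beside 5.28% and 8.18% of all genes. IRF4, a factor of IL-4 driven programs, had means of 528 in M2, 12.1 in M1 and 192 in M0, and log2 ratios of 1.46 for M2 over M0 and -3.99 for M1 over M0. IL13RA1, a receptor chain for IL-13 and IL-4, had log2 ratios of -0.92 and -1.21. STAT6, which carries the IL-4 signal, had means of 4418 in M2, 6245 in M1 and 4966 in M0, log2 ratios of -0.17 for M2 over M0 and 0.33 for M1 over M0. In M2 over M1, IL2RG, the common gamma chain, had a log2 ratio of 1.08 and IRF8, a myeloid and dendritic cell factor, one of -1.02.

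Antigen processing genes had medians below 0 in both comparisons with M0. Of 13 measured, 0 were at least 2-fold higher or lower in M2 over M0, beside 2.80% higher and 3.25% lower of all genes. In M1 over M0, 1 was higher and 0 lower, beside 5.28% and 8.18% of all genes. The medians of the list were -0.19 in M2 over M0 and -0.15 in M1 over M0. CTSS, the protease that trims the invariant chain, had means of 152086 in M2, 165263 in M1 and 114770.0 in M0, with log2 ratios of 0.41 for M2 over M0 and 0.53 for M1 over M0. LGMN, which makes an early cut of the invariant chain, had 17741 in M2, 18090 in M1 and 25748 in M0, and IFI30, an endosomal reductase, had 14297, 15193 and 14344 in the same order. The gene past 2-fold was CST7, a cathepsin inhibitor, with 61.3 in M2, 1772 in M1 and 91.7 in M0. CTSD, an aspartic protease of the endosome, had a log2 ratio of -1.02 in M2 over M1.

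Of 17 measured genes of class II transport and turnover, 1 was at least 2-fold higher and 0 lower in M2 over M0. The shares of all genes were 2.80% and 3.25%. In M1 over M0, 0 were higher and 1 lower, beside 5.28% and 8.18% of all genes. The gene past 2-fold was in both cases CD9, a tetraspanin, with means of 8549 in M2, 1511 in M1 and 3129 in M0. The medians of the list were 0.10 and 0.11.

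**Figure D5:**
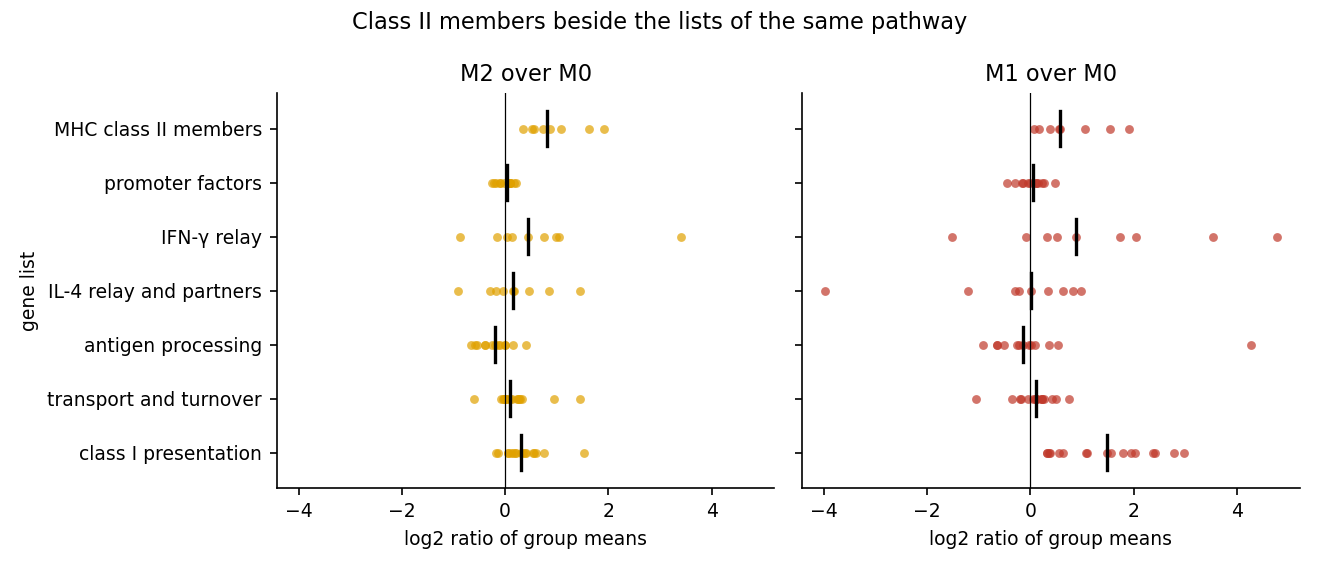
Log2 ratios of group means, one point per measured gene, for the 8 class II members and 6 lists of the same and the neighboring pathway, with M2 over M0 on the left, M1 over M0 on the right and a black bar at the median of each list. The class II members all lie at or above 0 in both panels, with medians of 0.81 and 0.57, while promoter factors cluster around 0 and the class I list has its higher median, 1.47, in M1 over M0.

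Class I presentation had its higher median in M1. Of its 17 measured genes, 1 was at least 2-fold higher in M2 than in M0, beside 2.80% of all genes, with a median of 0.30. In M1 over M0, 11 were at least 2-fold higher, beside 5.28% of all genes, with a median of 1.47. NLRC5, the class I counterpart of CIITA, had means of 2551 in M2, 14621 in M1 and 2807 in M0. B2M, the light chain of class I, had 295151 in M2, 338404 in M1 and 231474 in M0. The gene past 2-fold in M2 over M0 was DLA-79, a class I chain, at 1.53 on the log2 scale, and the highest ratios in M1 over M0 were those of the peptide trimmer ERAP2 (2.97) and the proteasome activator PSME2 (2.79).

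The label of the cells was checked against marker lists. Of 14 macrophage markers 13 were measured, with summed means of 272701 in M2, 151401 in M1 and 322857 in M0, so the markers were present in all groups. In M1 over M0, 5 were at least 2-fold lower, among them MRC1 (-2.38) and CD163 (-2.32), beside 8.18% of all genes. None was at least 2-fold higher, beside 5.28% of all genes. In M2 over M0, 1 was higher, MRC1 (2.27), and 1 lower, ADGRE1 (-1.07), beside 2.80% and 3.25% of all genes. In M2 over M1, MRC1 was at 4.64, CD163 at 2.03 and MERTK at -1.13.

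Other cells that carry class II could be present among adherent blood cells. Of 11 B cell markers 9 were measured, and most of their summed means of 13654 in M2, 11159 in M1 and 11894 in M0 came from CD79A, with 12039 in M2, 9856 in M1 and 10511 in M0. JCHAIN, the joining chain of secreted antibodies, had 961 in M2, 802 in M1 and 835 in M0, and TNFRSF13C, the receptor for the B cell survival factor BAFF, had 432, 351 and 361 in the same order. Lower means were those of further B cell markers: MS4A1 had 18.2 in M2, 14.4 in M1 and 17.2 in M0, CD79B had 79.6, 48.2 and 45.7, and PAX5 had 25.9, 6.56 and 9.91 in the same order. In M2 over M0, 1 B cell marker, PAX5, with an average mean below 50, was at least 2-fold higher, and in M1 over M0 it was 0. Dendritic cell markers, 9 measured of 15 and including IRF4 and IRF8 of the IL-4 list, summed to 18401 in M2, 15392 in M1 and 9073 in M0. In M2 over M0, 5 were at least 2-fold higher and 2 lower, and in M1 over M0 3 were higher and 1 lower. Among them BATF3, a dendritic cell factor, had 559 in M2, 381 in M1 and 43.8 in M0, FSCN1, which bundles actin in mature dendritic cells, had 11399, 6853 and 3338, and CCR7 had 257, 354 and 99.2 in the same order. The 2 markers at least 2-fold lower in M2 than in M0 were CADM1, with log2 ratios of -1.06 for M2 over M0 and -0.82 for M1 over M0, and BTLA, with an average mean below 50 and ratios of -2.35 and -0.98. IRF4 was lower in M1 than in M0, as given above, IRF8 had a log2 ratio of -0.045 for M2 over M0, and CD83 had 2924 in M2, 2512 in M1 and 2400.1 in M0. T and NK cell markers, 11 measured of 14, summed to 6955 in M2, 6268 in M1 and 5960 in M0. CD2 and CD4 made up most of these sums, while CD3E had 162 in M2, 88.8 in M1 and 92.8 in M0. In M2 over M0, 1 of them was at least 2-fold higher and 0 lower, and in M1 over M0 3 were higher and 1 lower. The marker higher in M2, GZMB, and 2 of those higher in M1, GZMA and GZMB, had average means below 50. The other marker higher in M1 was CD2, with 919 in M2, 5032 in M1 and 1253 in M0. The marker lower in M1 was CD4, with 5565 in M2, 918 in M1 and 4325 in M0. Beside these marker counts, 2.80% of all genes were at least 2-fold higher and 3.25% lower in M2 over M0, and 5.28% and 8.18% in M1 over M0. Those shares leave out genes with an average mean below 50, which the marker counts include. The part of these cell types in the class II differences was not tested.

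The genes whose 2 ratios to M0 lay nearest to those of CIITA, among named genes with an average mean of at least 50, were THY1, FSCN1, DOCK9, SCIMP and ZNF672. Their distances in the plane of the 2 log2 ratios were 0.13, 0.14, 0.15, 0.15 and 0.26. SCIMP, an adaptor that works with class II in immune synapse signaling, had means of 2529 in M2, 1848 in M1 and 907 in M0. THY1 had 204, 148 and 72.2 in the same order, ZNF672 had 563, 460 and 185, and DOCK9 had 90.7, 70.4 and 31.9. DOCK9 passed the minimum of 50 only through the M2 and M1 groups. The likeness of these genes to CIITA rests on 3 group means and describes only them.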

How the data were processed

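RNA from 9 cultures, 3 per group, was sequenced. After read filtering, the authors used Partek Flow 7.0 for alignment (STAR 2.7.3a, genome CanFam3.1) and for counting with HTSeq, followed by DESeq2 for normalization and group comparison. The signal values used are the authors' least squares means of normalized counts per group, as deposited, for protein coding genes. Means carry no spread between samples, so no test could be run. The table also holds the authors' own p-values, FDRs and fold changes, and 3 further sheets hold their log2 ratios for selected genes. None of these were used.

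Log2 ratios of the means were computed without a pseudocount, and the shares of genes past 2-fold were taken over genes whose 3 means averaged at least 50. The computation was run on simulated group means with set ratios and no noise, which checks only the arithmetic. It was run in Python 3.11.15 using numpy 2.4.6 and pandas 2.3.3, with matplotlib 3.10.9 for plots. The members and the 12 other gene lists were chosen with earlier results of these data known. Named genes are all members, 9 fixed pathway genes, 5 B cell markers, up to 2 genes per list, direction and comparison with the most extreme ratios past 2-fold, and the 5 genes nearest to CIITA, except that some of these are not reported here. TAP1, PSMB9 and BRD2 are named for their position. STAT6, CD3E, TNFRSF13C, JCHAIN, BTLA, CD83, GZMA, GZMB, MARCHF1 and MYO1E were chosen after their values were seen. Alternatives were other scalings, a pseudocount of 1, a log2 ratio of 1.5 and other minimum averages. Sequences of the members were not used here.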

Additional observations from a re-analysis of the deposited data

How the results depend on the processing

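The scaling of the groups, a pseudocount of 1, a mark at a log2 ratio of 1.5, no minimum average and a minimum average of 200 were tried one at a time. Of 141 member values compared, 138 stayed on the same side of the mark in use. Those that did not were CIITA in M1 over M0, at 0.99 with equal totals, and, under the mark of 1.5, CIITA in M1 over M0 (1.06) and HLA-DQB2 in M2 over M0 (1.08). The 24 values with no minimum and the 21 with a minimum of 200 could not change, because a minimum leaves a ratio as it is. The mark of 1.5 also left the ratios themselves unchanged. The counts of members past the mark did move. In M1 over M0 the members higher fell from 3 to 2 with equal totals, with a minimum of 200 and under the mark of 1.5. In M2 over M0 they fell from 3 to 2 with a minimum of 200 and under the mark of 1.5, and stayed at 3 with equal totals. The sign changed for 2 ratios, both small and both with equal totals: CD74 in M1 over M0 and DLA-DOA in M2 over M1. Under the mark of 1.5, by its construction, fewer genes passed: 1.45% were higher and 1.32% lower in M2 over M0, 2.62% higher and 3.93% lower in M1 over M0, and 3.71% higher and 2.86% lower in M2 over M1. The medians of the members and the ratios between members moved by less than 0.58 on the log2 scale under the alternatives run. No paired analysis was possible because the values are 1 mean per group, and for the same reason no replicate could be left out. Counting error cannot be computed from these means and weighs most on DLA-DOA.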

Other observations

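Of 9 listed repressors of CIITA or of class II transcription, 0 were at least 2-fold higher or lower in M2 over M0. The shares of all genes were 2.80% higher and 3.25% lower. In M1 over M0, 0 were higher and 1 lower, beside 5.28% and 8.18% of all genes. The lower gene was MYCL, with 645 in M2, 187 in M1 and 696 normalized counts in M0 macrophages. PRDM1, which encodes BLIMP1 and silences CIITA in plasma cells, had means of 10089 in M2, 3288 in M1 and 5468 in M0. Its mean was thus higher in M2 than in M1 by 1.62 on the log2 scale, and its part in the CIITA differences was not tested. MARCHF1, the ubiquitin ligase that removes class II from the surface of resting antigen presenting cells, had means of 2781 in M2, 4468 in M1 and 4232 in M0, a log2 ratio of -0.61 in M2 over M0. MYO1E, a motor protein tied to class II transport in dendritic cells, had means of 10784 in M2, 6051 in M1 and 5561 in M0, a log2 ratio of 0.96 in M2 over M0. MARCHF1 and MYO1E were chosen after their values were seen. Both come from the list of class II transport and turnover, whose 17 measured genes had a median log2 ratio of 0.10 in M2 over M0.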
